A study of Mus musculus with 2 samples.

Results

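The core pluripotency factors are the transcription factor genes Pou5f1 (which encodes Oct4), Sox2, Nanog and Sall4. Their rows were taken by name from a table of 21937 genes, of which 18759 had reads, so they are 4 of 18759 genes, and all 4 were found. RNA sequencing covered wild-type mouse embryonic stem (ES) cells of the mixed strain 129Sv-C57Bl/6, kept without feeder cells, in 2 groups. The first group had received 500 nM ICRF-193 for 16 h and the second its solvent DMSO for 16 h, with 3 libraries each. ICRF-193 blocks the catalytic cycle of topoisomerase II, the enzyme that passes one DNA duplex through another, and the study used it to ask what part the catalytic activity of Top2a plays in transcription. Whether the 3 libraries of a group stem from separate cultures is not in the labels. The p-values therefore reflect only how far these libraries spread, which may be technical.

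Oct4 is a POU domain protein and Sox2 an HMG box protein. They bind DNA side by side at a composite of an octamer and a SOX motif, and together with the homeodomain protein Nanog they occupy the enhancers of genes active in ES cells, their own included. Sall4, a zinc finger protein, binds many of the same regions and is needed for the proliferation of ES cells. Loss of Oct4 turns ES cells towards trophectoderm, whereas Nanog varies between cells of one culture and its loss is tolerated.

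In the mouse build GRCm38 with GENCODE M21 annotation, Pou5f1 (ENSMUSG00000024406.16) lies on chromosome 17 from 35506018 to 35510772 on the plus strand, with 2248 exonic bases. Sox2 (ENSMUSG00000074637.7) is a single exon on chromosome 3 from 34650405 to 34652461, plus strand, with 2057 bases. Nanog (ENSMUSG00000012396.12) lies on chromosome 6 from 122707489 to 122714633, plus strand, with 2242 exonic bases, and Sall4 (ENSMUSG00000027547.17) on chromosome 2 from 168748332 to 168767943, minus strand, with 5536. These positions come from the annotation and not from the deposited table, which was made on the build mm9 and holds no coordinates.

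The promoters of 3 members are shown because these genes are targets of the circuit that they form, and they were searched for the octamer and SOX letters. Each window runs from 250 bases before to 50 bases after the start of the gene in RefSeq (GRCm38.p6), all on the plus strand, and capitals mark a match to the octamer core ATGCAAA or the SOX core CATTGT on either strand. The windows are chr17:35505782-35506081 for Pou5f1, chr3:34649745-34650044 for Sox2 and chr6:122707239-122707538 for Nanog.
Pou5f1: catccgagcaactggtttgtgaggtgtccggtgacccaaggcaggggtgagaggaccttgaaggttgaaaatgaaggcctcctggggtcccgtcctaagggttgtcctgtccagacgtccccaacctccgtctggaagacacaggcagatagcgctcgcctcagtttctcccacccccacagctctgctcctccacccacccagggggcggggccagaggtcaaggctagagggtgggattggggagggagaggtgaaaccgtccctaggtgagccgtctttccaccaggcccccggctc
Sox2: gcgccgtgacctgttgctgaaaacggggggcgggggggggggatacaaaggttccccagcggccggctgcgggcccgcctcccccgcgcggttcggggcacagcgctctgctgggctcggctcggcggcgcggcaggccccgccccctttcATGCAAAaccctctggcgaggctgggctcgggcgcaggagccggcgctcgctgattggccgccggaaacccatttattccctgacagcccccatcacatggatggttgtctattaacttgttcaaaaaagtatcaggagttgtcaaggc
Nanog: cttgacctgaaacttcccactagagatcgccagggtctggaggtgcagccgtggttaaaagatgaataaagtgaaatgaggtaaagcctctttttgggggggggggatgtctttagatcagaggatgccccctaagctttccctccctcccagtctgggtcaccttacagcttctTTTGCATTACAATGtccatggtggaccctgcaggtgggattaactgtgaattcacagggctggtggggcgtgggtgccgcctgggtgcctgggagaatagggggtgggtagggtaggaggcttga

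The Nanog window held both cores on the reverse strand, ATGCAAA at bases -75 to -69 and CATTGT at bases -67 to -62 from the start, separated by 1 base. This arrangement was found in 2 of 32851 RefSeq promoter windows of the same length (0.00609%), and both were windows of Nanog. The Sox2 window held ATGCAAA at bases -99 to -93 on the forward strand and no CATTGT. It ends before the start that GENCODE gives for Sox2. The Pou5f1 window held neither string. Over all windows ATGCAAA was found in 1520 (4.63%) and CATTGT in 4129 (12.6%). A match describes the letters of the window and is not a measured binding site.

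Depth and the libraries that stood apart come before the results. The deposited table gives only group means of normalised reads (reads divided by a size factor for each library). Whole reads per library were worked back from the digits of these means. The letters A, B and C order the libraries of a group from the largest size factor to the smallest; they are no replicate numbers. Over the genes worked back, depth ran from 27798995 to 32444570 reads in the ICRF-193 libraries and from 31324736 to 44600750 in the DMSO libraries. Library A of each group stood apart from B and C. Its ratio to the mean of B and C went up with exonic length, with a Spearman's rho across 10686 genes of 0.508 in ICRF-193 and 0.533 in DMSO, given as a description of these libraries. The summed level of 13 fibroblast markers was 106497, 34457 and 28538 normalised reads in ICRF-193 libraries A, B and C, against 82368, 22701 and 24825 in DMSO libraries A, B and C. This sum was highest in library A in both groups, as were 9 of the 13 markers, while Thy1 and S100a4 were lowest there in both. Fn1 of the same list is not in the sum, because its reads per library could not be worked back. Its mean was 43271 normalised reads in ICRF-193 and 51866 in DMSO, and its level in libraries A is not known. Col1a1 (type I collagen) had 15180, 1907 and 1323 normalised reads in ICRF-193 libraries A, B and C, against 12908, 923 and 874 in DMSO libraries A, B and C. Dcn (decorin) averaged 8.66 in ICRF-193 and 12.3 in DMSO, and Lum (lumican) 0.335 and 0.331. Results that rest on libraries A are given with and without them.

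All 4 factors had a lower mean after 16 h of ICRF-193 than in DMSO, at 0.633 to 0.758 of the DMSO mean. A ratio below 1 was found for 49.4% of 18759 genes. In the authors' DESeq test 0 of 4 passed an adjusted p of 0.05, where 1.26% of 18759 genes passed as lower, and 2 of 4, Sox2 and Sall4, had an unadjusted p under 0.05, where 5.38% of genes did so as lower. With limma-voom on the reads worked back, Sox2 passed, 1 of 4 where 5.93% of 15001 genes passed as lower. When the fit had a term that sets libraries A apart from B and C, 4 of 4 passed, where 32.6% of genes passed as lower and 27.1% as higher. Without both libraries A 4 of 4 passed as well, where 29.8% of 14446 genes passed as lower and 24.1% as higher. In bulk RNA, fewer cells that express a gene and less of its RNA per cell cannot be told apart.

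**Figure D1:**
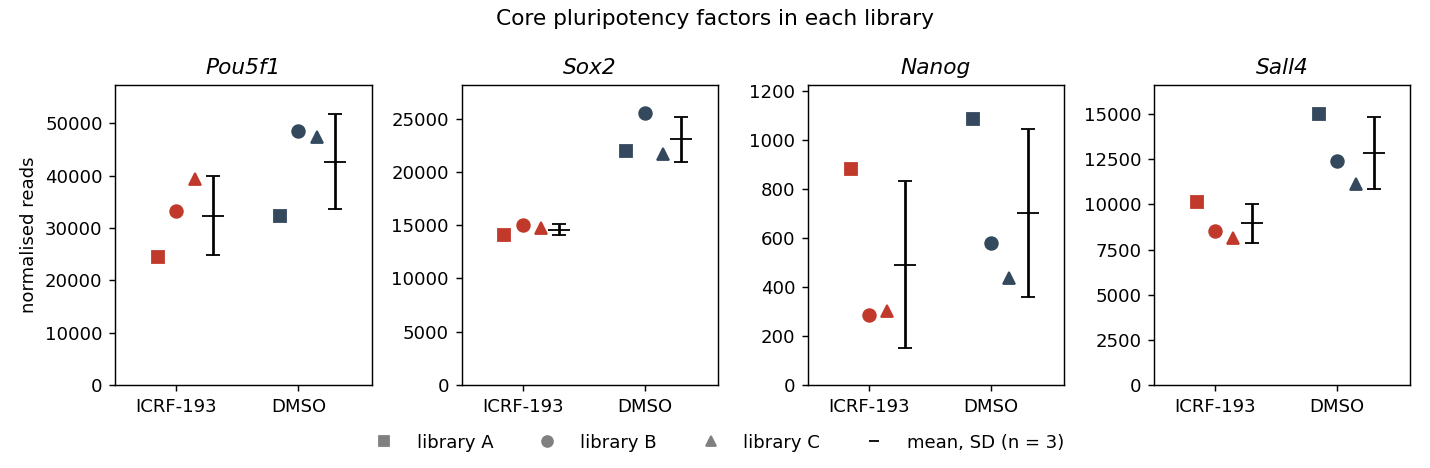
Normalised reads of the 4 factors (y axis, from 0, its own scale for each gene) in the ICRF-193 and DMSO libraries; squares, circles and triangles are libraries A, B and C and the bars are mean and SD (n = 3). Sox2 and Sall4 separate the groups, as 18.8% of the 15001 genes fitted do in this direction. For Pou5f1 and Nanog library A of one group reaches into the range of the other.

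Pou5f1, which encodes the factor that ES cells cannot do without, was the most abundant of the 4. It had 24395, 33317 and 39344 normalised reads in ICRF-193 libraries A, B and C, against 32259, 48467 and 47307 in DMSO libraries A, B and C. Library A was the lowest in both groups, and DMSO library A lay below 2 of the ICRF-193 libraries, so the groups overlapped. Without libraries A they did not, an order that 41.7% of the genes fitted also showed in this direction. The means were 32352 ± 7521 in ICRF-193 and 42678 ± 9042 in DMSO (SD, n = 3), a deposited ratio of 0.758 and a log2 change of -0.40 (adjusted p = 0.530, authors' DESeq test). The change was the same size within the split: -0.40 on the log2 scale between libraries A and -0.40 between the means of B and C. The reads of Pou5f1 were, however, chosen among 4 combinations that fitted the digits. That choice favoured a like shift of library A in both groups, so the likeness is not independent evidence. With a term for the split limma-voom gave -0.40 with a 95% interval of -0.53 to -0.28 (adjusted p = 0.000165), and without that term an interval of -0.95 to 0.15 (adjusted p = 0.277).

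Sox2, the partner of Oct4 on DNA, had the largest change of the 4 in the deposited table and the smallest spread between libraries. It had 14035, 14995 and 14726 normalised reads in ICRF-193 libraries A, B and C, against 21992, 25505 and 21663 in DMSO libraries A, B and C. The highest ICRF-193 library stayed below the lowest DMSO library, an order that 18.8% of the 15001 genes fitted also showed in this direction. Means were 14585 ± 495 in ICRF-193 and 23054 ± 2130 in DMSO (SD, n = 3), with a deposited ratio of 0.633 and a log2 change of -0.66 (unadjusted p = 0.00615, adjusted p = 0.0734, authors' DESeq test). By limma-voom Sox2 fell by 0.66 on the log2 scale, with a 95% interval of -0.89 to -0.43 (adjusted p = 0.00883). This call was lost when ICRF-193 library B (adjusted p = 0.0537) or ICRF-193 library C (adjusted p = 0.0521) was left out, with -0.70 to -0.58 as the range over the 6 libraries left out in turn. Of all genes with reads, 7.15% had a lower log2 change than Sox2.

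Nanog, the factor that varies most between ES cells, was also the one that varied most between libraries. It had 884, 287 and 303 normalised reads in ICRF-193 libraries A, B and C, against 1089, 580 and 438 in DMSO libraries A, B and C. Library A was 3.00 times the mean of B and C in ICRF-193 and 2.14 times in DMSO, and ICRF-193 library A lay above 2 of the DMSO libraries. The means of 492 ± 340 in ICRF-193 and 702 ± 342 in DMSO (SD, n = 3) had a ratio of 0.700 and a log2 change of -0.51 (adjusted p = 0.834, authors' DESeq test). Its size moved with libraries A: the log2 change was -0.30 between libraries A and -0.79 between the means of B and C. Limma-voom gave -0.63 with an interval of -1.88 to 0.62 over all 6 libraries (adjusted p = 0.454). With a term for the split it gave -0.54, with an interval of -0.82 to -0.26 (adjusted p = 0.00367), and without both libraries A -0.78 (adjusted p = 0.00135). The value was -1.16 without ICRF-193 library A (adjusted p = 0.134) and -0.24 without DMSO library A (adjusted p = 0.744).

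Sall4, the zinc finger partner, had 10147, 8524 and 8160 normalised reads in ICRF-193 libraries A, B and C, against 15033, 12430 and 11135 in DMSO libraries A, B and C. Library A was the highest of its group in both. The groups did not overlap, an order that 18.8% of the 15001 genes fitted also showed in this direction. The means were 8944 ± 1058 in ICRF-193 and 12866 ± 1985 in DMSO (SD, n = 3), a ratio of 0.695 and a log2 change of -0.52 (unadjusted p = 0.0245, adjusted p = 0.190, authors' DESeq test). Limma-voom gave -0.52 with an interval of -0.87 to -0.17 (adjusted p = 0.0572), and with a term for the split -0.52 with an interval of -0.64 to -0.40 (adjusted p = 1.64e-05). The change was -0.57 between libraries A and -0.50 between the means of B and C.

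**Figure D2:**
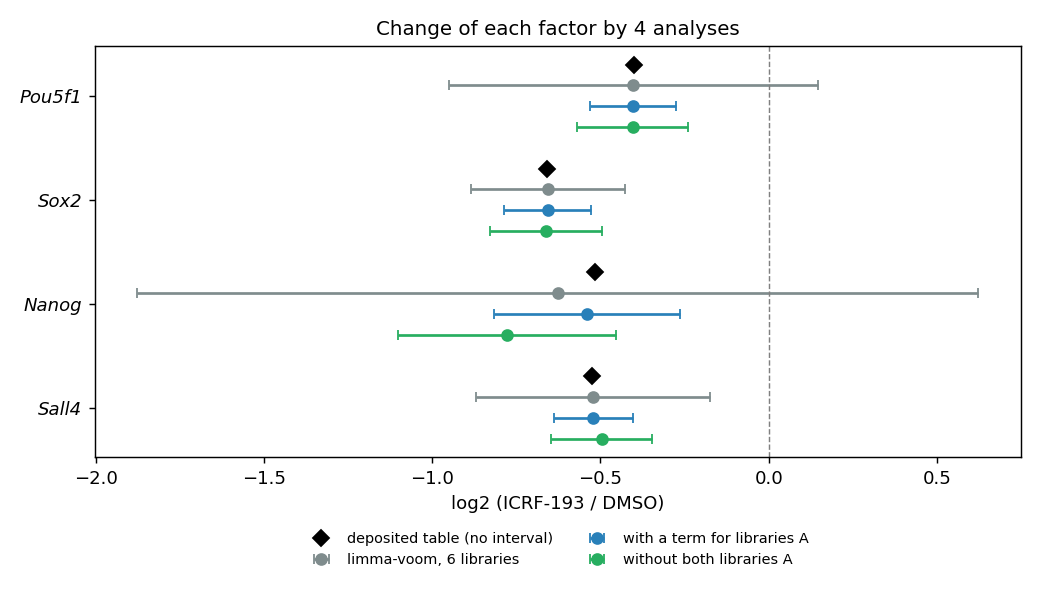
Log2 change of each factor, ICRF-193 over DMSO (x axis), from the deposited table (diamonds, no interval) and from limma-voom on the reads worked back (circles with 95% intervals) over 6 libraries, with a term for libraries A, and without both libraries A. All values lie below 0; without the term the interval of Nanog runs from -1.88 to 0.62 and that of Pou5f1 from -0.95 to 0.15.

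The split term was used because libraries A differed from B and C in the same sense in both groups, which was seen in the data and is not in the labels. It assumes that a gene is shifted alike in library A of both groups. The ratio of library A to the mean of B and C was 0.671 in ICRF-193 and 0.674 in DMSO for Pou5f1, and 0.944 and 0.932 for Sox2. For Sall4 it was 1.22 in ICRF-193 and 1.28 in DMSO. The values of Pou5f1 are no check of the assumption, because the choice of its reads favoured such likeness. Nanog departed most from the assumption, with 3.00 in ICRF-193 and 2.14 in DMSO. Among 625 genes within 10% of its length, Nanog stood above 99.0% in ICRF-193 and 98.1% in DMSO in this ratio. Pou5f1, of about the same length, stood above 17.1% and 20.8% of 624 genes. Of these 2 members of near equal length, Nanog thus lay at the upper end and Pou5f1 below the middle. The part that length, fibroblast RNA or another property of libraries A has in the values of Nanog and Pou5f1 was not tested.

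**Figure D3:**
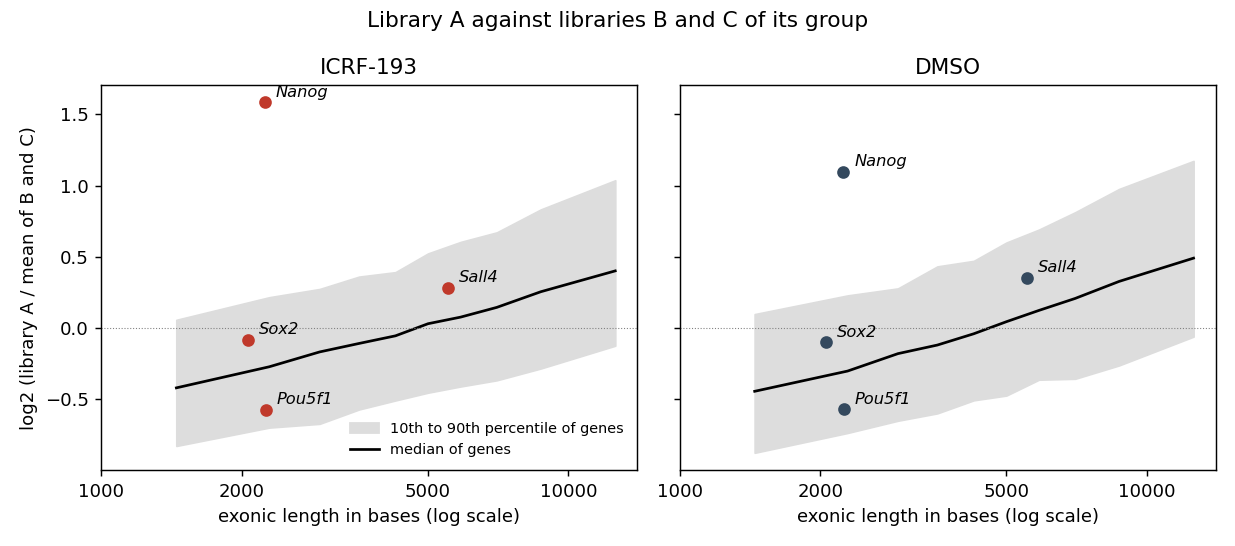
Log2 ratio of library A to the mean of libraries B and C (y axis) against exonic length on a log scale (x axis), in ICRF-193 on the left and DMSO on the right; the line is the median and the band the 10th to 90th percentile of genes in 10 bins of length. Nanog lies above the band in both groups, at 1.58 in ICRF-193 and 1.10 in DMSO, and the other 3 factors lie within it.

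Whether reads were counted by strand is not given, so overlaps and copies of each member were read from the annotation. The antisense gene Gm19553 shares 317 exonic bases with Pou5f1 (14.1% of its exons) and Gm14261 shares 526 with Sall4 (9.50%), and without strand the reads there cannot be assigned to one gene. Neither Gm19553 nor Gm14261 was among the deposited genes under these names. Sox2 lies within Sox2ot, a non-coding transcript of the same strand, but they share 0 exonic bases. Sox2ot averaged 52.6 normalised reads in ICRF-193 and 72.9 in DMSO (adjusted p = 0.717, authors' DESeq test). Parts of the Nanog transcript matched 459 other annotated genes at 90% identity or more over at least 100 bases, mostly by short stretches with a median of 187 bases. The match of Nanog of at least 240 bases was the pseudogene Nanog-ps1, 97.6% identical over 245 bases and not among the deposited genes under this name. For Pou5f1, Sox2 and Sall4 the count of matching genes was 1, 0 and 1. The part of such copies in the low level of Nanog was not tested.

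Levels between genes were compared as normalised reads per kb of exon. Pou5f1 had 14391 ± 3346 per kb in ICRF-193 and 18985 ± 4022 in DMSO (SD, n = 3), rank 12 of 16764 genes in ICRF-193 and rank 8 in DMSO. Sox2 followed with 7090 ± 241 per kb in ICRF-193 and 11207 ± 1035 in DMSO (ranks 76 and 37), and Sall4 with 1616 ± 191 and 2324 ± 359 (ranks 1045 and 726). Nanog came last with 219 ± 152 per kb in ICRF-193 and 313 ± 153 in DMSO (ranks 6240 and 5237). The order was the same in both groups, and no neighbours in it came within 1 SD of each other.

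Whether the factors changed by different amounts was asked with the log2 ratio of reads of each pair within a library, in 6 pairs, with an exact two-sided permutation test over libraries that cannot give a p below 0.1 for 3 against 3. The ratio of Pou5f1 to Sox2 was 1.74, 2.22 and 2.67 in ICRF-193 libraries A, B and C, against 1.47, 1.90 and 2.18 in DMSO libraries A, B and C. The groups overlapped, and the log2 difference of 0.25 had an exact p of 0.4 (0.9 after Benjamini-Hochberg adjustment). The other differences on the log2 scale lay between -0.14 for Sox2 over Sall4 (exact p = 0.5) and 0.21 for Pou5f1 over Nanog (exact p = 0.7). Every pair had overlapping groups and an adjusted p of 0.9. These tests do not show that the factors changed alike.

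The genes whose profile over the 6 libraries came closest to each factor were found by the root mean square distance of log2 values centred on their mean, among 6845 genes with a mean of at least 1000 normalised reads. For Pou5f1 they were Dcps (distance 0.0389), Psmb5 (0.0466) and Aurkaip1 (0.0481). For Sox2 they were Wtap (0.0374), Lmnb1 (0.0480) and Chek1 (0.0488), and for Sall4 Nek2 (0.0325), Dbt (0.0387) and Btbd9 (0.0393). Those of Nanog lay further off, with Arid5b at 0.176, Usp9x at 0.178 and Erc1 at 0.196. Of Pou5f1, Sox2 and Sall4, none was among the 3 nearest genes of another factor. Nanog, with a mean of 597 normalised reads over both groups, was below the minimum and could not be listed. Between factors, Sox2 and Sall4 were the closest pair at 0.206, and Pou5f1 and Nanog the most distant at 0.924.

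The genes around the core were read from lists chosen with earlier results of these data known, so their counts are a description. Of 32 known targets of the core, 7 fell in the authors' DESeq test, where 1.26% of all genes did, and 25 missed its threshold. There 0 rose, 0 were higher at an unadjusted p under 0.05, and limma-voom called 0 higher. All 32 of 32 had a ratio below 1, where 49.4% of all genes did. Their median log2 change was -0.68, that of all genes -0.00. Spp1, which encodes the secreted glycoprotein osteopontin, fell to 3467 ± 151 normalised reads in ICRF-193, against 10647 ± 297 in DMSO (SD, n = 3), a log2 change of -1.62 (adjusted p = 6.53e-09, authors' DESeq test). Dppa3, a maternal factor that protects DNA methylation in the zygote, fell to 270 ± 71.3 in ICRF-193, against 794 ± 218 in DMSO (-1.55, adjusted p = 0.00120, same test). Upp1 (uridine phosphorylase) fell by 1.15 (adjusted p = 0.000137) and Fbxo15, an F-box gene of ES cells, by 1.05 on the log2 scale (adjusted p = 0.000637, same test). The Polycomb gene Phc1, the most abundant target that did not pass, had 22743 ± 1503 in ICRF-193 and 34336 ± 1513 in DMSO. With limma-voom 9 targets were lower, where 5.93% of all genes were. With a term for the split 27 were lower, where 32.6% of genes were, and without libraries A 26, where 29.8% were.

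Of 32 protein partners of Oct4, Nanog and their complexes, 2 fell, where 1.26% of all genes did, and 30 did not pass. A ratio below 1 was found for 25, where 49.4% of all genes had one, with a median log2 change of -0.22. Trim28, a corepressor that zinc finger proteins recruit, fell to 59778 normalised reads in ICRF-193, against 109603 in DMSO (-0.87, adjusted p = 0.00692, authors' DESeq test); its reads per library could not be worked back, so it has no SD. Zfp143, a zinc finger protein of promoters, fell to 1219 ± 95.1 in ICRF-193, against 2119 ± 122 in DMSO (-0.80, adjusted p = 0.0200, same test). Chd4, the ATPase of the NuRD complex, had a log2 change of -0.04 and did not pass. Among 31 partners fitted with a term for the split 18 were lower, where 32.6% of all genes were, and 4 higher, where 27.1% were. Without libraries A 16 were lower, where 29.8% of genes were, and 2 higher, where 24.1% were.

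Relatives of the factors had log2 changes in both directions. In the authors' DESeq test 5.97% of all genes passed as higher and 1.26% as lower. Of 14 further POU genes 1 passed: Pou4f3, a gene of inner ear hair cells, rose to 97.3 ± 15.1 normalised reads in ICRF-193, against 7.12 ± 2.06 in DMSO (SD, n = 3), a log2 change of 3.77 (adjusted p = 3.35e-15, authors' DESeq test). Pou3f1, an epiblast and glial factor and the most abundant relative of Oct4, had -0.01. Of 18 SOX genes with reads, Sox10, a neural crest gene, rose to 157 ± 16.0 in ICRF-193, against 46.8 ± 13.6 in DMSO (1.75, adjusted p = 3.29e-06, same test). Sox12 fell to 2089 ± 32.9 in ICRF-193, against 3728 ± 96.7 in DMSO (-0.84, adjusted p = 0.0122, same test), while Sox11, of the same subgroup, had -0.59 and did not pass. Of the 3 other Sall genes, Sall1, a kidney developmental gene, fell to 5432 ± 659 in ICRF-193, against 9460 ± 1975 in DMSO (-0.80, adjusted p = 0.0133, same test), and Sall2 had 0.04. In the fit with a term for the split 5 of 10 POU genes were higher and 1 lower. In that fit 2 of 16 SOX genes were higher and 5 lower, while 1 of 3 Sall genes was lower. Of all genes 27.1% were higher there and 32.6% lower. Without libraries A 2 of 9 POU genes were higher and 1 lower, and 2 of 15 SOX genes higher and 4 lower. Of 3 Sall genes 1 was higher and 1 lower, where 24.1% of all genes were higher and 29.8% lower. The SOX counts thus lay near or below the shares of all genes in both fits. The median log2 change was 0.21 for the POU, 0.04 for the SOX and 0.04 for the Sall relatives.

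**Figure D4:**
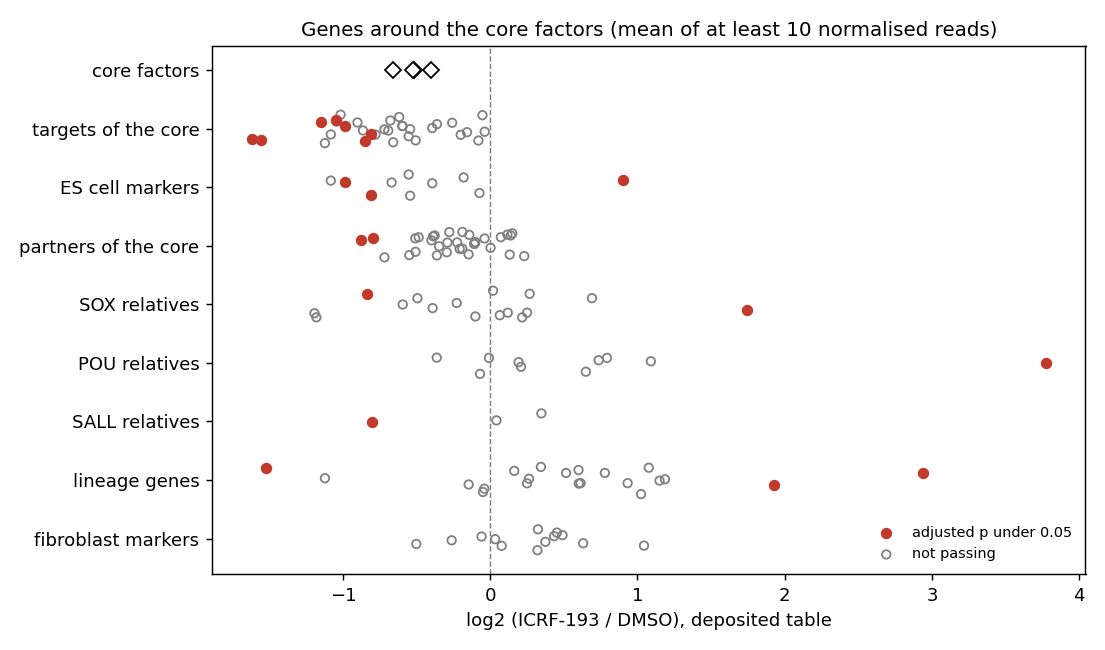
Log2 change, ICRF-193 over DMSO, in the deposited table (x axis) for the core factors (diamonds) and for genes of each list with a mean of at least 10 normalised reads (circles, filled where the adjusted p is under 0.05). All targets lie below 0, Pou4f3 stands at 3.77, and the 4 core factors lie between -0.66 and -0.40.

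Developmental regulators reported as bound by the core in ES cells had a median log2 change of 0.60, with 2 of 23 higher (the background for higher is 5.97%), 1 lower and 20 that did not pass. Nkx2-2, a gene of the ventral neural tube, rose to 20.5 ± 3.26 normalised reads in ICRF-193, against 2.66 ± 2.39 in DMSO (2.94, adjusted p = 0.00159, authors' DESeq test), and Lhx5, a forebrain gene, to 26.3 ± 6.90, against 6.90 ± 2.99 (1.93, adjusted p = 0.0223, same test). Both stayed at a low level. Pax6, a gene of eye and neural development, fell to 180 ± 13.4 in ICRF-193, against 516 ± 42.8 in DMSO (-1.52, adjusted p = 9.67e-07, same test). Zfhx3, the most abundant that did not pass, had 1468 ± 532 in ICRF-193 and 1156 ± 683 in DMSO, a log2 change of 0.34. Not all of these genes were at a low level in these cells: the DMSO mean of Zfhx3 exceeds that of Nanog. With a term for the split 11 of 20 were higher, where 27.1% of all genes were, and 1 lower, and without libraries A 9 of 18 were higher, where 24.1% were, and 1 lower.

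Markers of the labelled cell type and of fibroblasts were read beside these lists. Of 10 ES cell markers other than the factors, 2 fell, 1 rose and 7 did not pass; 6 of the 10 are also among the targets above, both that fell included. With a term for the split 8 of 10 were lower and 1 higher, where 32.6% and 27.1% of all genes were. Without libraries A 7 were lower and 1 higher, where 29.8% and 24.1% of genes were. Zfp42 (Rex1) fell to 4111 ± 552 normalised reads in ICRF-193, against 8155 ± 1734 in DMSO (adjusted p = 0.00186, authors' DESeq test), and Lin28a, which binds let-7 precursors, to 12134 ± 498, against 21261 ± 1665 (adjusted p = 0.0170, same test). Fut4, which encodes a fucosyltransferase, rose to 298 ± 7.34 in ICRF-193, against 159 ± 9.36 in DMSO (adjusted p = 0.0202, same test). Tdgf1, the Nodal coreceptor Cripto, had a log2 change of -0.54 and did not pass. Of 14 fibroblast markers 0 passed in the authors' DESeq test (2 higher at an unadjusted p under 0.05, where 11.5% of all genes were), with a median log2 change of 0.32. With limma-voom 1 of 12 was higher, where 9.74% of genes were, with a term for the split 7 of 12, where 27.1% were, and without libraries A 9 of 11, where 24.1% were. Fn1, fibronectin, had -0.26. The part of fibroblast RNA in the lower level of the factors was not tested. Of 11 housekeeping genes B2m, the light chain of MHC class I, rose by 0.92 on the log2 scale (adjusted p = 0.00439, authors' DESeq test), while the other 10 did not pass and Actb had -0.13. The median log2 change of the 11 was -0.25, and 8 had a ratio below 1, where 49.4% of all genes did. With a term for the split 4 of 9 were lower and 3 higher, where 32.6% and 27.1% of all genes were. Without libraries A these counts were again 4 and 3 of 9, where 29.8% and 24.1% of genes were.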

How the data were processed

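RNA was measured in 2 samples, ICRF-193 and DMSO, each labelled as 3 replicates. Per the submitters' processing notes, TopHat, HTSeq and DESeq were used on the build mm9; versions, annotation, settings and strand are not given in the sources used here. As the authors deposited it, each group column is a signal: the mean over libraries of reads over the library's size factor. The deposited fold change is a ratio, ICRF-193 over DMSO, with its log2, and the deposited p-values, unadjusted and adjusted over all genes, come from the authors' DESeq test. That test is the main result. The members and gene lists were chosen with earlier results of these data known.

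Whole reads per library were worked back from the 15 digits of the means by a lattice search, a step chosen after the deposited values were seen. Of 18759 genes with reads, 18587 had a single solution, 146 were taken at a posterior of at least 0.99, and 26 stayed unresolved. Sox2, Nanog and Sall4 had a single solution; Pou5f1 was taken by posterior, the next combination having 1.84e-07. For the limma-voom fit (R 4.3.3 with limma 3.58.1), a gene needed 10 or more reads in 3 or more libraries, which kept 15001 genes; p-values were adjusted by Benjamini-Hochberg, and the scripts were tested on simulated data. The alternatives were a term for libraries A, leaving out libraries, other scalings and no filter. The term for libraries A and the fit without both libraries A rest on a split that was seen in the data. The term together with total reads was also chosen after seeing the data. Each factor had at least 270 reads in every library, and counting error is part of the spread between libraries.

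Named in each list were up to 4 passing genes of largest change in each direction and the most abundant that did not pass. Sequence matches were found with blastn 2.17.0 and promoter windows of 3 of 4 members came from RefSeq.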

Additional observations from a re-analysis of the deposited data

How the results depend on the processing

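Each factor had a negative log2 change in 13 of 13 limma-voom settings, which draw on the same 6 libraries and are not independent. With a term for libraries A and total reads as scaling the changes were -0.28 for Pou5f1, -0.54 for Sox2, -0.42 for Nanog and -0.40 for Sall4. All passed, where 20.8% of 15001 genes passed as lower and 35.2% as higher. This scaling moved the median of all genes to 0.08, against -0.04 with size factors. Relative to that median Pou5f1 was at -0.36, Sox2 at -0.62, Nanog at -0.50 and Sall4 at -0.48. With the term and size factors the changes were -0.40, -0.66, -0.54 and -0.52. Without both libraries A they were -0.40 (Pou5f1, adjusted p = 0.00119), -0.66 (Sox2, 5.61e-05), -0.78 (Nanog, 0.00135) and -0.50 (Sall4, 0.000175). Sox2 also passed with limma-voom at -0.66, at -0.54 with total reads, -0.59 with the upper quartile and -0.66 with no filter. Leaving out 1 library in turn gave -0.59 to -0.21 for Pou5f1, -0.70 to -0.58 for Sox2, -1.16 to -0.24 for Nanog and -0.62 to -0.40 for Sall4. Over all genes these fits called 357 to 1732 higher and 74 to 1376 lower; the deposited test called 1120 higher and 237 lower, limma-voom 1461 higher and 889 lower. Genes called lower were 753 with no filter, 579 with the upper quartile and 411 with total reads, which called 1825 higher. The term for libraries A called 4060 higher and 4887 lower, with total reads 5280 and 3119, and leaving out libraries A 3477 and 4299. Among targets 27 were lower with the term and 26 without libraries A, against 7 in the deposited test. Partners lower were 7 with limma-voom, 18 with the term and 16 without libraries A, and partners higher 4 with the term and 2 without libraries A. Lineage genes higher were 11 with the term and 9 without libraries A. The log2 difference of a pair of factors ranged from -0.53 to 0.93 over the libraries left out. The cause of these differences was not tested. No paired analysis was possible because the columns carry no replicate number. The library with the fewest reads of a factor held 270 of Nanog, and the intervals follow the spread between 3 libraries in each group.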

Other observations

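The high level of Nanog in libraries A was shared by some of the listed targets of the core and not by others. These genes were singled out after their values were seen. Of 32 targets, 4 were at least 2 times as high in library A as in the mean of B and C in both groups, as were 3.13% of 10686 genes. Tbx3, a T-box gene of naive ES cells, stood at 3.53 times in ICRF-193 and 5.24 times in DMSO, and Tcfcp2l1, a CP2 family gene of the same state, at 3.03 and 4.17 times. Klf4, a Kruppel-like factor, stood at 2.41 times in ICRF-193 and 2.56 times in DMSO, and Prdm14, a PR domain gene, at 2.44 and 2.53 times. Otx2, a gene of the primed epiblast, was at 0.434 in ICRF-193 and 0.425 in DMSO, and Gdf3, a TGF-beta ligand, at 0.615 and 0.580. Closest below 2 times were Nr5a2, at 1.91 in ICRF-193 and 1.83 in DMSO, and Esrrb, at 1.84 and 1.96. Rest stood at 1.79 in ICRF-193 and 1.81 in DMSO, Tcl1 at 1.77 and 1.70, and Rif1 at 1.66 and 1.70. Other targets were lower or nearer to 1. Dppa3 stood at 0.606 in ICRF-193 and 0.617 in DMSO, and Dppa4 at 0.634 and 0.661. Zfp42 stood at 1.24 in ICRF-193 and 1.35 in DMSO, and Klf2 at 1.32 and 1.22. Among these targets the ratio thus lay on both sides of 1. Whether libraries A differed from B and C in the state of the ES cells was not tested.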
